A study of Mus musculus with 8 samples.

Results

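Cyclin-dependent kinases were followed at the RNA level in mouse primordial germ cells, the precursors of sperm and eggs, with and without the arginine methyltransferase gene Prmt5. The 10 kinase genes were Cdk10, the cell cycle kinase genes Cdk2, Cdk4 and Cdk6, Cdk7, and the transcription kinase genes Cdk8, Cdk9, Cdk11b, Cdk12 and Cdk13. They were 10 of 21444 genes with a count in the files, and all 10 passed the low-count filter that left 10990 genes. The set was chosen by its measured values: Cdk10 was selected on its low counts in Prmt5 KO beside Control, and the other kinase genes were taken with it. The differences of these genes between the genotypes are therefore given as a description with no p-value. Where the fit over the whole table is counted, the place of these genes in it restates the choice and is not evidence for or against a difference.

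The 4 Prmt5 KO libraries came from embryos of genotype Blimp1Cre;Prmt5flox/flox and the 4 Control libraries from embryos of genotype Blimp1Cre;Prmt5flox/+, so the Control cells also carried Cre and 1 floxed copy of Prmt5. All embryos were taken at embryonic day 11.5 on a mixed background of C57BL/6 and 129. The cells carried the green fluorescent reporter dPE_Oct4 GFP, which marks germ cells, and were sorted on it. Each library was made from 50 pg of RNA with a published single-cell method. Cre stood under Blimp1, a gene of the germ cell programme that is also active in some other embryonic tissues. No label states how many embryos or litters stand behind a group's libraries. The p-values given here therefore speak only of the scatter among those libraries, some of which may be technical.

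A cyclin-dependent kinase is a catalytic subunit that works only with a cyclin partner, which binds a helix near the active site. CDK2, CDK4 and CDK6 drive entry into and passage through S phase, largely through phosphorylation of the retinoblastoma protein. CDK7 sits in a complex that activates other kinases of the family and that belongs to the general transcription factor TFIIH. CDK8 is the kinase of Mediator, CDK9 is the kinase of P-TEFb, which releases paused RNA polymerase II, and CDK12 and CDK13 phosphorylate the polymerase during elongation. CDK11 acts in splicing and transcription. CDK10 pairs with cyclin Q (also called cyclin M), and the transcription factor ETS2 and the kinase PKN2 are known substrates.

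The kinship of the genes shows in the bases that encode the cyclin-binding helix. The stretches printed are from coding transcripts of GENCODE M21 (build GRCm38), 5′ to 3′ on the coding strand. Capitals mark the 21 bases of the signature of the helix, and 12 bases on each side are in lower case. Cdk10 is shown first, then Cdk4, which was closest to it, Cdk2 as the classical member, Cdk9, Cdk12 and the most distant, Cdk8.
Cdk10: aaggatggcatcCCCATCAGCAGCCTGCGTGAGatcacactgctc
Cdk4: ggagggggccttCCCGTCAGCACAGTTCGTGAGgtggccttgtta
Cdk2: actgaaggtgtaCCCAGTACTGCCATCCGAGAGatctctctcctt
Cdk9: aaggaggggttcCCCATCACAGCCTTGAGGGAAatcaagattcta
Cdk12: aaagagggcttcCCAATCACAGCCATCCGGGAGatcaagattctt
Cdk8: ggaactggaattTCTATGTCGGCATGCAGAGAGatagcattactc
The capitals of Cdk10 lie in exon 4 of 13 of Cdk10-201 (chr8:123227428-123227448, plus strand) and those of Cdk9 in exon 3 of 7 of Cdk9-201 (chr2:32710544-32710564, minus strand). Of the 21 bases of Cdk10, 16 were the same in Cdk4, 13 in Cdk9 and Cdk12, 12 in Cdk2 and 7 in Cdk8. No pair among the 10 genes shared more than 16. Alignments of at least 50 bases at 95% identity or more were also sought between each gene's transcript and all transcripts of other genes, and none joined any of the 10 genes to another.

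Such alignments to other genes were absent for 6 of the 10 kinase genes. The longest match of Cdk10 was to 298 bases of the pseudogene Gm6473 at 98.3% identity, and Cdk8 matched 717 bases of the pseudogene Gm7107. Neither pseudogene is listed in any library, but the transcripts of both have identifiers above the highest in the files, so they may not have been counted and reads from them were not measured. Cdk6 matched 284 other genes, with alignments of at most 233 bases, so reads in its long transcript can be uncertain.

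The targeted gene and the purity of the cells were checked first. Prmt5 was at 26.4 to 40.5 CPM (counts relative to the library total, after TMM scaling) in Prmt5 KO, against 89.4 to 172 CPM in Control, and it fell (log2 fold change -1.95, SE 0.272, edgeR adjusted p = 0.0388). Only without Control 1 did the call survive the loss of a single library, and for the other 7 the fold change was -2.01 to -1.82 and not called. On multidimensional scaling Prmt5 KO 4 stood apart on the first axis, at -2.69 with the other 7 libraries at 0.21 to 0.86, and Prmt5 KO 1 on the second, at -2.26 with the others at -0.39 to 0.89. Gene counts totalled 4318974 to 6549498 per library in Prmt5 KO and 1811433 to 5844437 in Control, where Control 2 and 3 were the shallowest. All 12 germ cell markers were tested and 0 passed, with summed levels of 3324 to 4270 CPM in Prmt5 KO and 3407 to 3647 CPM in Control. The 2 with the smallest p were Utf1 (log2 fold change 0.33) and Dazl (-0.61). Of 11 markers of somatic gonad, 10 had a count. Their sum was 473 CPM in Prmt5 KO 1, 17.9 to 45.2 CPM in the other Prmt5 KO libraries and 19.8 to 36.6 CPM in Control. Endothelial markers summed to 296 to 395 CPM in Prmt5 KO and 279 to 360 CPM in Control, most of it from Pecam1. Whether the Pecam1 counts came from endothelial cells was not tested. Cdh5 had 0.249 to 1.52 CPM in Prmt5 KO and 0.893 to 5.80 CPM in Control. Kdr had no count in Prmt5 KO and at most 3 counts in a Control library. The 3 endothelial markers tested had log2 fold changes of 2.05 for Tek, -1.18 for Egfl7 and -0.03 for Pecam1, with a median of -0.03. None was called in edgeR, and Tek was called in DESeq2. Of 7 blood markers, 4 had a count, and their sum was 6.98 to 39.5 CPM in Prmt5 KO and 20.96 to 42.9 CPM in Control, nearly all of it from Csf1r. Exons of Csf1r share 873 bases with Hmgxb3 on the opposite strand, and the strand setting is not known. Hmgxb3 had 16.2 to 66.9 CPM in Prmt5 KO and 34.6 to 72.5 CPM in Control, and its part in the Csf1r counts was not tested. The red cell genes Hbb-bt, Hbb-y and Hba-a1 had no count.

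Cdk10 (ENSMUSG00000033862) had 6.59, 13.2, 16.5 and 9.47 CPM in Prmt5 KO 1 to 4, against 60.0, 69.2, 32.4 and 67.2 CPM in Control 1 to 4. Every Prmt5 KO library lay below every Control library, and the nearest values were 16.5 CPM in Prmt5 KO 3 and 32.4 CPM in Control 3. The mean was 11.4 ± 4.33 CPM in Prmt5 KO, which is 20% of the 57.2 ± 17.0 CPM in Control (SD, n = 4 each). The log2 fold change was -2.32 with a standard error of 0.400. Behind these values stood 39, 68, 111 and 38 counts in Prmt5 KO, against 355, 155, 59 and 382 counts in Control. Prmt5 KO 3, the deepest library, thus had more Cdk10 counts than the shallow Control 3. In sorted bulk cells, less RNA per cell and fewer cells with the RNA cannot be told apart.

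The log2 fold change of Cdk10 stayed between -2.55 and -2.13 when any 1 library was left out. Prmt5 KO 1 and 4, which stood apart on multidimensional scaling, held the 2 lowest values of Cdk10 and also of Cdk9. Without these libraries together the log2 fold change of Cdk10 was -1.95, and without Control 2 and 3 together it was -2.47. Prmt5 KO 1, the library with the high somatic sum, held the lowest Cdk10 value, and without it the log2 fold change was -2.13. The part of other cells in the difference was not tested.

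All Cdk10 counts were on 1 transcript, Cdk10-201 (ENSMUST00000036880), a protein-coding RNA of 13 exons and 1642 bases at chr8:123224842-123232250 on the plus strand of GRCm38. GENCODE M21 annotates 12 Cdk10 transcripts, of which 2 are protein-coding, 5 have a retained intron, 3 are annotated for nonsense-mediated decay and 2 are processed transcripts. The 11 others had no entry in any library, and each has an identifier above the highest one in the files, so they may not have been counted at all. These transcripts hold 2662 exon bases that Cdk10-201 lacks. Whether retained introns of Cdk10 changed between the genotypes was therefore not measured. Of the Cdk10-201 bases, 151 overlap Spata2l on the opposite strand, but Spata2l had 1 count over all 8 libraries. Exons of Gm45842, on the same strand, share 186 bases of Cdk10-201. Gm45842 had no count in any library, and whether it was among the genes counted is not known.

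Over the whole table, 3 of 10990 genes (0.0273%) were called by edgeR at an adjusted p of 0.05, and 0 of the 10 kinase genes were among them, Cdk10 included. Of the 3 calls, 2 were higher (0.0182% of genes) and 1, Prmt5, was lower in Prmt5 KO (0.0091%). An unadjusted p under 0.05 was reached by 896 genes. DESeq2 called 1.02% of all genes it adjusted, and edgeR with no low-count filter called 0.0326%. Of the kinase genes only Cdk10 was among these calls, in both fits, which restates its choice. The groups did not overlap, with Prmt5 KO lower, for 2 of the 10 kinase genes, Cdk10 and Cdk9, beside 2.27% of all genes tested. For 0 of the 10 were the groups apart with Prmt5 KO higher, beside 2.63% of all genes, and groups were apart in either direction for 4.9% of all genes. The log2 fold change was below 0 for 8 of the 10 kinase genes, beside 47.3% of all genes, and its median was -0.28, beside 0.03 over all genes. Without Cdk10, the median of the other 9 was -0.21. The set's own counts were fixed in part by the choice of Cdk10, and nothing is read from them.

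**Figure D1:**
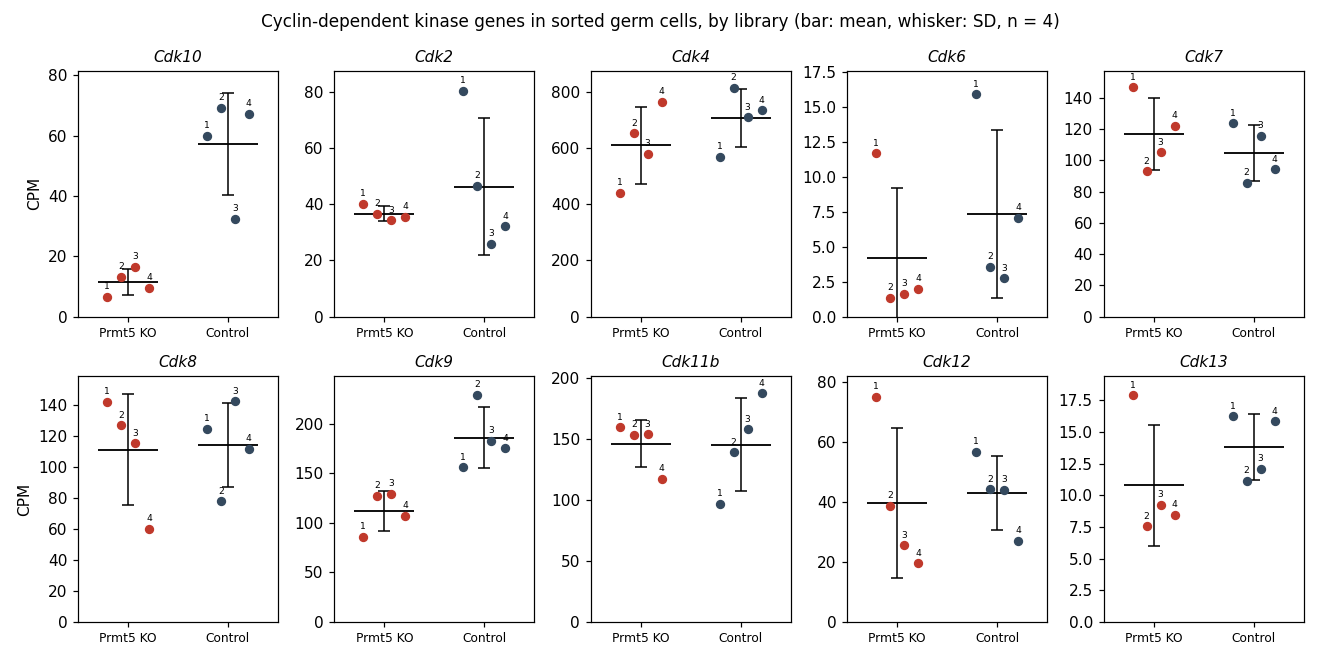
Level of each kinase gene in CPM (y axis, from 0) in the 4 Prmt5 KO libraries (red, left) and the 4 Control libraries (dark, right), numbered by replicate, with the mean (bar) and SD (whisker, cut off at 0). Cdk10 and Cdk9 are the 2 genes whose groups do not overlap, and Prmt5 KO 1 stands above the other Prmt5 KO libraries for Cdk6, Cdk12 and Cdk13.

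Among the cell cycle kinases, Cdk4, the partner of D-type cyclins, had 439, 652, 578 and 763 CPM in Prmt5 KO 1 to 4, against 569, 813, 708 and 733 CPM in Control 1 to 4. The groups overlapped, with means of 608 ± 136 CPM in Prmt5 KO and 706 ± 102 CPM in Control (SD, n = 4 each), and the log2 fold change was -0.21 (SE 0.169). Cdk2, the partner of cyclins E and A, had 40.2, 36.4, 34.2 and 35.4 CPM in Prmt5 KO, against 80.3, 46.4, 25.8 and 32.01 CPM in Control. The Prmt5 KO libraries lay close together and inside the wide Control range, with a log2 fold change of -0.34 (SE 0.363). It was 0.07 without Control 1, the library with the highest value.

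Cdk6, the second partner of D-type cyclins, was scarce, with 11.7, 1.36, 1.64 and 1.99 CPM in Prmt5 KO 1 to 4, against 15.9, 3.57, 2.74 and 7.04 CPM in Control 1 to 4. The groups overlapped through Prmt5 KO 1. Its log2 fold change was -0.83 (SE 0.860) over all libraries and -2.15 without Prmt5 KO 1. The counts were 69, 7, 11 and 8 in Prmt5 KO and 94, 8, 5 and 40 in Control, so most libraries rest on few reads. The somatic markers were also high in Prmt5 KO 1, but not in Control 1, where Cdk6 was highest, and their part in the Cdk6 values was not tested.

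Cdk7, which serves both the cell cycle and transcription, had 147, 93.0, 105 and 122 CPM in Prmt5 KO, against 124, 85.7, 116 and 94.3 CPM in Control. The ranges overlapped over most of their width, with a log2 fold change of 0.15 (SE 0.216). It was -0.08 without Prmt5 KO 1 and 4 together.

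Among the transcription kinases, Cdk9 (ENSMUSG00000009555) had 85.6, 127, 129 and 107 CPM in Prmt5 KO 1 to 4, against 156, 229, 183 and 175 CPM in Control 1 to 4. The highest Prmt5 KO library lay below the lowest Control library. Means were 112 ± 20.3 CPM in Prmt5 KO and 186 ± 31.0 CPM in Control (SD, n = 4 each), so Prmt5 KO stood at 60.4% of Control. The log2 fold change was -0.73 (SE 0.198) and ranged from -0.80 to -0.60 on leaving out any 1 library. Without Prmt5 KO 1 and 4 together it was -0.53.

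Cdk8, the Mediator kinase, had 59.8 to 142 CPM in Prmt5 KO and 77.7 to 142 CPM in Control, with a log2 fold change of -0.04 (SE 0.276). Cdk11b had 118 to 160 CPM in Prmt5 KO and 96.9 to 188 CPM in Control, with a log2 fold change of 0.01 (SE 0.217). Both fold changes took the other sign under some of the other settings, so neither has a direction.

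Cdk12 had 75.0, 38.6, 25.4 and 19.4 CPM in Prmt5 KO 1 to 4, against 56.6, 44.2, 43.9 and 26.9 CPM in Control 1 to 4. Its values spread widely in both groups, and the log2 fold change of -0.11 (SE 0.423) became 0.06 without Control 1, 0.05 without Prmt5 KO 3 and 0.11 without Prmt5 KO 4. It was -0.62 without Prmt5 KO 1. Cdk13, which resembles Cdk12, had 17.9, 7.56, 9.23 and 8.47 CPM in Prmt5 KO and 16.2, 11.2, 12.1 and 15.8 CPM in Control. Here too Prmt5 KO 1 was the highest of its group, and the log2 fold change of -0.36 (SE 0.513) was -0.72 without it.

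**Figure D2:**
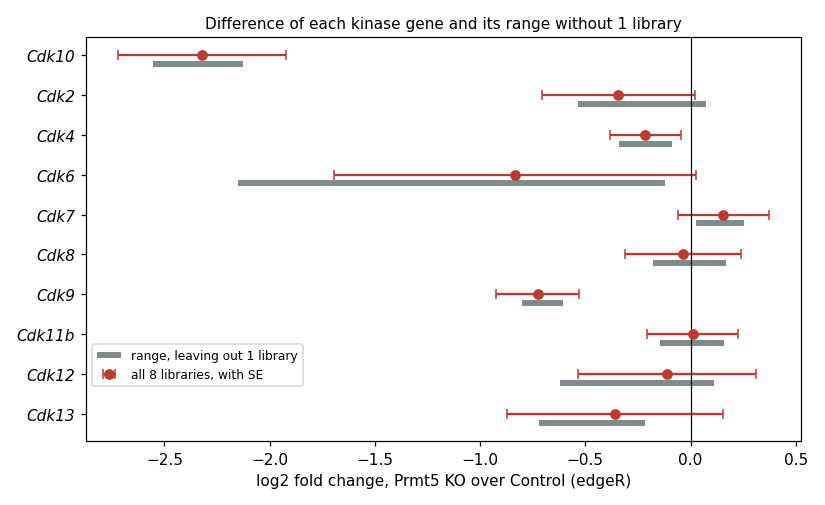
Log2 fold change of each kinase gene, Prmt5 KO over Control (x axis), with all 8 libraries (point, whisker for the SE) and the range when each library is left out in turn (grey bar). Cdk10 stays between -2.55 and -2.13 and Cdk9 between -0.80 and -0.60, while the bar of Cdk6 runs from -2.15 to -0.12.

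Levels were then compared between the genes per kilobase of the transcript that gave the gene value. The library method copies RNA from its 3′ end, so long transcripts may be counted short. By the mean of log2 levels over the 8 libraries the order was Cdk4, Cdk9, Cdk7, Cdk11b, Cdk8, Cdk2, Cdk10, Cdk12, Cdk13 and Cdk6. Cdk4 had 215 to 399 CPM per kilobase, above every value of the other genes, and Cdk6 had 0.118 to 1.38.

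Of the 9 pairs of neighbours, 7 without Cdk10 were tested, by two-sided exact paired permutation over the 8 libraries with Benjamini-Hochberg adjustment. Cdk4 was higher than Cdk9 in 8 of 8 libraries, by 1.94 ± 0.33 on the log2 scale (SD). Cdk8 was higher than Cdk2 by 1.16 ± 0.67, Cdk12 higher than Cdk13 by 1.49 ± 0.51 and Cdk13 higher than Cdk6 by 2.68 ± 0.87, each in 8 of 8 libraries (exact permutation adjusted p = 0.0137 for each of these 4 pairs, the smallest possible raw p being 0.00781). For the neighbours among Cdk9, Cdk7, Cdk11b and Cdk8 the difference did not exceed its spread over the pooled genotypes. There the differences were 0.58 ± 0.66 for Cdk9 over Cdk7, 0.28 ± 0.45 for Cdk7 over Cdk11b and 0.31 ± 0.44 for Cdk11b over Cdk8 (SD), with exact permutation adjusted p of 0.0766, 0.141 and 0.109. For Cdk9 and Cdk7 the pooled spread holds the genotype difference of Cdk9. In Prmt5 KO, Cdk9 had 49.4 to 74.5 CPM per kilobase and Cdk7 46.8 to 73.8, with Cdk9 higher in 3 of 4 libraries. In Control, Cdk9 had 90.0 to 132 and Cdk7 43.1 to 62.2, with Cdk9 higher in 4 of 4 libraries.

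The place of Cdk10 in that order differed between the genotypes, which restates its choice. Per kilobase it had 4.01, 8.03, 10.1 and 5.77 CPM in Prmt5 KO 1 to 4, against 36.5, 42.1, 19.7 and 40.9 CPM in Control 1 to 4. By group means of the linear values it ranked 7 of 10 in Prmt5 KO, between Cdk2 (15.2 ± 1.07) and Cdk12 (6.70 ± 4.21), and 6 of 10 in Control, between Cdk8 (38.3 ± 9.16) and Cdk2 (19.2 ± 10.1; SD, n = 4 each). The other ranks apart from that of Cdk2 were the same in both groups.

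**Figure D3:**
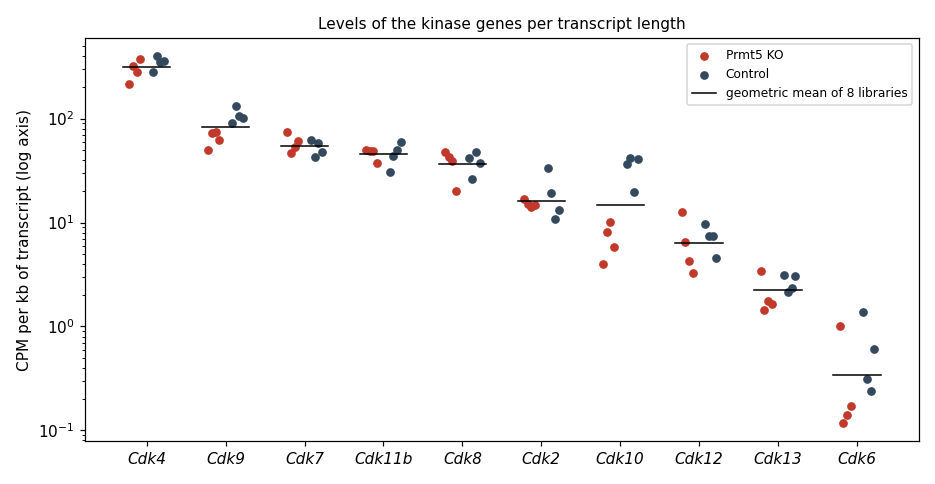
CPM per kilobase of transcript (y axis, log scale) for each kinase gene in order of mean level, with Prmt5 KO libraries in red on the left, Control libraries dark on the right and the geometric mean of 8 libraries as a line. Cdk4 is highest and Cdk6 lowest, and Cdk10 is the gene whose groups lie farthest apart, which restates its choice.

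Other transcripts of the 10 genes were examined next. GENCODE M21 holds 78 transcripts of these genes, of which 46 were listed, and the other 32 all had identifiers above the highest in the files. Reads in shared exons appear to be counted for several transcripts, so a transcript was set against the one that gave the gene value and taken as a percent of its counts. Transcripts with over 20 counts and at least 1000 exon bases outside the transcript of the gene value were described, a choice made after the values were seen. Such bases may also lie in other transcripts of the same gene.

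Cdk12-201 ends in a longer exon 13 and lacks the last exon of Cdk12-203, which gave the gene value, and 1035 of its bases are not in Cdk12-203. It was at 23.4%, 10.1%, 16.4% and 8.97% of Cdk12-203 in Prmt5 KO 1 to 4, against 49.9%, 23.2%, 36.2% and 26.8% in Control 1 to 4. The groups touched only where Prmt5 KO 1 met Control 2. Means were 14.7% ± 6.67 in Prmt5 KO and 34.0% ± 11.9 in Control (SD, n = 4 each). The counts of Cdk12-201 were 104, 20, 28 and 7 in Prmt5 KO and 167, 23, 29 and 41 in Control, so several percentages rest on few reads. Of its bases 78.6% are also in Cdk12-203, yet it had 419 counts in all, and Cdk12-203 had 1559.

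Cdk12-206, annotated as a processed transcript without a coding sequence, was at 26.9% to 44.6% in Prmt5 KO and 33.3% to 73.9% in Control, and these ranges overlapped. Cdk12-205, also a processed transcript, had 0, 3, 5 and 1 counts in Prmt5 KO and 31, 6, 3 and 2 counts in Control, too few to compare. Cdk9-204, annotated with a retained intron, was at 95.9% to 99.0% of Cdk9-201 in Prmt5 KO and 96.5% to 103% in Control. Its counts followed those of Cdk9-201 although 2134 of its 3565 bases are not in Cdk9-201.

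For Cdk6, the shorter coding transcript Cdk6-201 of 2470 bases held 230 counts, against 242 for Cdk6-202 of 11525 bases. The remaining bases of the long form thus held few reads, and the level of Cdk6 per kilobase is understated with that length. With lengths limited to 3000 bases the means over the 8 libraries were 1.91 CPM per kilobase for Cdk6 and 4.10 for Cdk13. With full lengths they were 0.498 and 2.37. The gap between Cdk13 and Cdk6 was thus smaller with limited lengths, and the rank of Cdk6 was still 10. The gene value of Cdk4 came from Cdk4-207, annotated with a retained intron, which had 23557 counts, while the coding Cdk4-201 had 23333. On the opposite strand, exons of Tspan31, with 5707 counts over the 8 libraries, share 18 bases of Cdk4-207. Exons of Gm17590, with 5 counts, share 110 bases of Cdk6-202. Exons of Pmel overlap those of Cdk2, but with 0 bases in the transcript of its gene value.

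**Figure D4:**
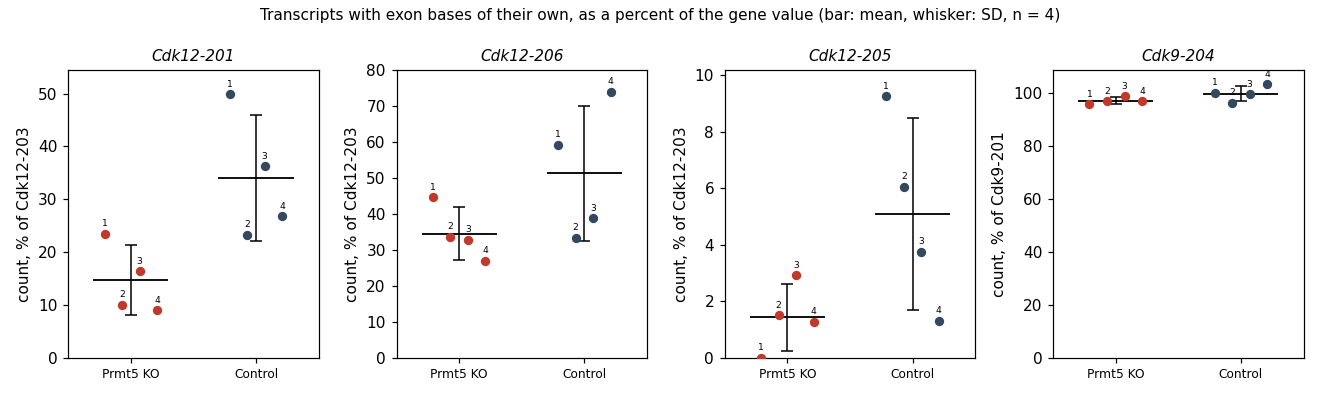
Count of 4 transcripts as a percent of the transcript that gave the gene value (y axis, from 0) in Prmt5 KO (red, left) and Control (dark, right) libraries, numbered by replicate, with mean (bar) and SD (whisker). Exon bases of their own, in the title, are those outside the transcript that gave the gene value. For Cdk12-201 the Prmt5 KO libraries lie at 8.97% to 23.4% and the Control libraries at 23.2% to 49.9%.

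Genes that partner, restrain or answer to these kinases were then described by lists. Among the 8 lists 0 genes were called in edgeR; 0.0273% of all genes were. By DESeq2, which called 107 genes, 2 genes of the lists passed, Cdkn1a and Cdkn3. Genes named from each list are the 2 with the smallest unadjusted p and, beyond them, partners of Cdk10 and Cdk9 and the mitotic kinase gene Cdk1, chosen after their values were seen.

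The partner and substrates of CDK10 did not share the low values of Cdk10. Ccnq, which encodes its cyclin, had 39.2, 38.2, 34.2 and 29.7 CPM in Prmt5 KO 1 to 4, against 28.2, 13.4, 25.8 and 25.7 CPM in Control 1 to 4. The groups did not overlap, with Prmt5 KO higher, as for 2.63% of all genes tested. The gene was not called (log2 fold change 0.60, SE 0.354, edgeR adjusted p = 0.712). Pkn2 had 99.6, 80.8, 77.7 and 130 CPM in Prmt5 KO, against 44.8, 54.5, 73.0 and 59.6 CPM in Control, also apart and also not called (0.75, SE 0.257, edgeR adjusted p = 0.457). Ets2 had a log2 fold change of 0.36 (edgeR adjusted p = 0.902), which ran from -0.07 to 0.65 on leaving out 1 library, so it has no direction.

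Of 13 cyclins and complex partners of the transcription kinases, 12 were tested, 8 with a log2 fold change above 0 and a median of 0.10, which lay between 0.02 and 0.21 on leaving out 1 library. The cyclins T of P-TEFb, partners of Cdk9, were at 0.00 for Ccnt1 (79.0 ± 15.3 CPM in Prmt5 KO and 79.2 ± 29.7 in Control, SD, n = 4 each) and at -0.13 for Ccnt2. Med13, of the Mediator kinase module, had 51.1 to 91.2 CPM in Prmt5 KO and 30.4 to 58.2 in Control (log2 fold change 0.83, edgeR adjusted p = 0.473). Of 9 genes that hold P-TEFb in check or recruit it, 8 were tested, 7 above 0, with a median of 0.31. Aff4, a scaffold of the super elongation complex, was at 0.96 (edgeR adjusted p = 0.431), with 162 CPM in Prmt5 KO 1 and 56.0 to 99.2 in the others, against 43.3 to 59.8 in Control. Hexim1, an inhibitor of P-TEFb, was at 0.85 (edgeR adjusted p = 0.657), with 25.1 to 41.3 CPM in Prmt5 KO and 7.78 to 29.1 in Control.

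Of 8 inhibitors of the cell cycle kinases, 7 had a count and 4 were tested, 2 above and 2 below 0. Cdkn1a, which encodes p21 and is a classical p53 target, had 99.0, 90.3, 105 and 69.3 CPM in Prmt5 KO, against 30.6, 24.6, 24.7 and 44.7 CPM in Control (log2 fold change 1.53, SE 0.286, edgeR adjusted p = 0.147). Cdkn3, a phosphatase that removes an activating phosphate from CDK2, had 0.844, 1.74, 3.27 and 1.495 CPM in Prmt5 KO, against 13.4, 11.6, 12.1 and 11.96 CPM in Control (log2 fold change -2.71, SE 0.655, edgeR adjusted p = 0.247). For both genes the groups lay apart, in opposite directions, and neither passed in edgeR. Groups were apart in either direction for 4.9% of all genes tested.

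Of 11 cell cycle cyclins, 8 were tested, 5 above 0, with a median of 0.02 that changed sign between -0.03 and 0.06 on leaving out 1 library. Ccnf was at 0.51 (edgeR adjusted p = 0.610) and Ccnb1, of mitosis, at 0.28 (edgeR adjusted p = 0.672). Of 11 regulators of kinase activity all were tested, 6 above 0, with a median of 0.22 that was 0.01 without Prmt5 KO 1. Cks2, a small subunit that binds the kinases, was at 0.61 (edgeR adjusted p = 0.579) and Cdc25c, an activating phosphatase, at 0.61 (edgeR adjusted p = 0.623). Exons of Cdc25c overlap Gm3550 on the opposite strand. Of the 11 retinoblastoma and E2F family genes tested, 10 were above 0, with a median of 0.36. Rbl2 was at 1.35 (edgeR adjusted p = 0.729; 0.55 to 1.73 on leaving out 1 library) and Rb1 at 0.75 (edgeR adjusted p = 0.741; 0.36 to 1.18). Both overlap genes on the opposite strand, and Prmt5 KO and Control overlapped for each.

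Of 10 further kinases of the family, 7 were tested, 4 above 0, with a median of 0.26. That median was -0.28 without Prmt5 KO 2, when 8 genes were tested. Cdk17 had 155 to 189 CPM in Prmt5 KO and 137 to 153 CPM in Control, apart but not called (log2 fold change 0.26, edgeR adjusted p = 0.741). Groups lay apart with Prmt5 KO higher for 2.63% of all genes tested. Cdk1 had 228 to 376 CPM in Prmt5 KO and 254 to 451 CPM in Control, a log2 fold change of -0.24 (edgeR adjusted p = 0.812). Cdk5 was at -1.03 (edgeR adjusted p = 0.703; -1.31 to -0.30 on leaving out 1 library), with 60.0 CPM in Control 4 alone and 4.98 to 21.6 CPM in the other 7 libraries.

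**Figure D5:**
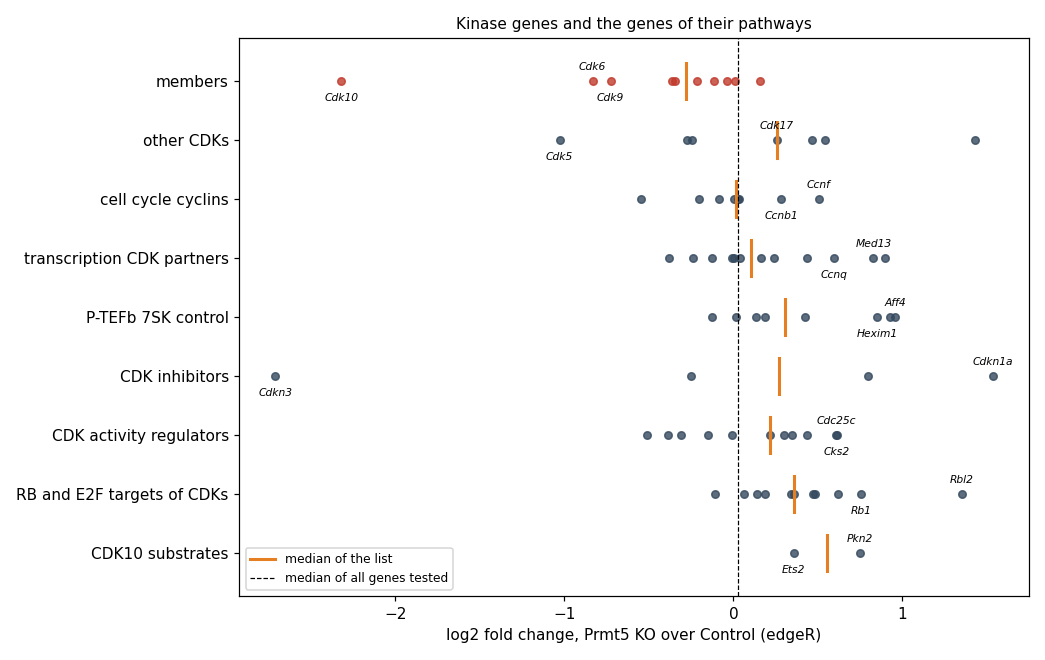
Log2 fold change, Prmt5 KO over Control (x axis), of the 10 kinase genes (red) and of the tested genes of 8 lists (dark), with the median of each list (orange) and of all genes tested (dashed line, 0.03). Cdk10 at -2.32 and Cdkn3 at -2.71 lie farthest to the left.

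The genes whose course over the 8 libraries was most like that of Cdk10 were found by the root mean square difference of log2 CPM, each gene centred on its own mean. They were Cdkn3 (0.37), Atat1, which encodes a tubulin acetyltransferase (0.40), Agtrap, which encodes a protein that binds the angiotensin receptor (0.41), Mpdz, a scaffold gene with PDZ domains (0.43), and Ppm1j, a phosphatase gene (0.44). None lies on chromosome 8 with Cdk10. All 5 had Prmt5 KO libraries below every Control library, a pattern that the choice by likeness to Cdk10 favours. Mpdz had 5.57 to 18.6 CPM in Prmt5 KO and 24.7 to 45.5 CPM in Control, and Ppm1j had 1.246 to 6.55 CPM in Prmt5 KO and 12.1 to 33.9 CPM in Control. Among the kinase genes Cdk9 was closest to Cdk10, at 0.86, and Cdk6 farthest, at 1.40.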

How the data were processed

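The authors deposited whole-number read counts per Ensembl transcript for 8 libraries, listing only transcripts with at least 1 count. Builds GRCm38 and mm10 are named per the submitters' processing notes. Which aligner, counter, annotation release and strand setting served was not given in the sources used here. Of 66262 identifiers, 64258 (97.0%) matched GENCODE M21, and the 2004 others, with 1.75% to 1.90% of a library's counts, were left out. Each gene took the counts of 1 transcript, the one whose sum across all 8 libraries was highest. Genes passing filterByExpr (minimum count 10, minimum total 15) were scaled by TMM and tested with edgeR's robust quasi-likelihood test and Benjamini-Hochberg adjustment at 0.05. The SE was the log2 fold change divided by the square root of F. Levels per kilobase used a pseudocount of 0.5 counts for log2 values. Similar transcripts were sought with BLAST 2.17.0 (word size 28). The test was checked on simulated counts, where it called 30 of 100 genes changed 2-fold and 68 of 100 changed 4-fold. Of 10790 unchanged genes it called 11. A gene that was not called may therefore still have changed. Alternatives covered scaling, tool, filter, robust estimation, the replicate block, gene value, length, pseudocount and left-out libraries.

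Named genes were Prmt5, the 10 kinase genes, from each list those called or, with none called, the 2 genes lowest in unadjusted p, the 5 most like Cdk10 (clone names passed over) and some of the genes with overlapping exons. Others were chosen after their values were seen. The kinase genes and lists were chosen with earlier results of these data known. One listed gene is not reported here. No libraries were identical. Software was edgeR 4.0.16, DESeq2 1.42.0 and limma 3.58.1 in R 4.3.3, with scipy 1.17.1 and matplotlib 3.10.9.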

Additional observations from a re-analysis of the deposited data

Results flagged for a closer look

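In 96 sets of values, each of 1 quantity in the 4 libraries of 1 group, 11 values lay far from the remaining 3. Chance gives about 1 in 20, or 4.8, for independent sets, and these sets share libraries and genes. Prmt5 KO 1 stood above the other Prmt5 KO libraries for Cdk6 (11.7 CPM, others 1.36 to 1.99) and Cdk13 (17.9 CPM, others 7.56 to 9.23). The same library was far above them for the somatic gonad sum (473 CPM, others 17.9 to 45.2), with Acta2 at 208 CPM and Col1a1 at 92.9 CPM, and for the mitochondrial share of counts (11.3%, others 9.01% to 9.29%). Prmt5 KO 4 was low for Cdk11b (117.6 CPM, others 154 to 160). Among Control libraries, Control 2 was high for Cdk17 (153 CPM, others 137 to 140), Col1a1 (6.25 CPM) and Atat1 (23.2 CPM, others 9.15 to 10.99), and Control 1 was high for Tek (28.9 CPM, others 4.46 to 8.09). No Cdk10 or Cdk9 value was singled out in either group.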

How the results depend on the processing

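The 3 genes called became 107 in DESeq2, 7 with no filter, 1 in limma voom, 1 with transcripts summed, 1 without both Prmt5 KO 1 and 4, 0 without both Control 2 and 3, and 1 to 2 on leaving out any 1 library. Whether the replicate numbers pair the libraries was not settled. Correlations of same-numbered deviations were low (0.0016 to 0.069), yet 3 of 4 Prmt5 KO libraries were closest to their own number. With the replicate block 1 gene was called. The log2 fold change of Cdk10 kept its sign in all 20 other settings, from -2.55 to -1.95. Cdk10 was called in 2 of them, DESeq2 and edgeR with no filter, and as it was chosen on its counts this is no evidence. Of 199 values of the 10 kinase genes under other settings, 16 changed sign, for Cdk2, Cdk7, Cdk8, Cdk11b and Cdk12. Cdk6 moved by more than its spread, to -2.15 without Prmt5 KO 1 and -2.30 without Prmt5 KO 1 and 4. The 4 neighbour pairs that differed in level were 4 to 5 on leaving out a library, and 6 with transcripts summed, where 2 pairs changed order. Counts of Cdk6 and Cdk13 limit what can be seen for them. Leaving out 1 library also moved the fold changes of uncalled list genes by over 1.5 times, among them Ccnf (0.20 to 0.66), Cks2 (0.36 to 0.78), Aff4 (0.61 to 1.16), Utf1 (0.10 to 0.47) and Dazl (-0.85 to -0.19). The causes were not tested.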
